A study of Homo sapiens with 2 samples.

Results

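The 36 genes described here are known as imprinted: in at least some tissues, or from some of their starts, mainly the maternal or mainly the paternal copy is transcribed. They were taken from a list and placed with the GENCODE v44 annotation lifted to hg19, out of 64439 genes of that annotation. For each gene, CpG cytosines were used from 5000 bp upstream to 2000 bp downstream of every transcript start, and windows that overlapped were joined, which gave 30 loci. The samples were 1 MCC-Seq library of SKNO-1, a human line of acute myeloid leukemia with the RUNX1-RUNX1T1 (AML1-ETO) fusion, and 1 library of SKNO1-siAE, which is SKNO-1 infected with the lentiviral vector pRRLcPPT.hPGK encoding siAGF1 oligonucleotides against the mRNA of the fusion. Both lines were grown in the same medium. Since SKNO1-siAE was also infected and then grown on as a line of its own, effects of the silencing, of the vector and of separate culture cannot be told apart. MCC-Seq captures bisulfite-converted DNA of CpG-rich regions. A cytosine that was methylated is read as cytosine and an unmethylated cytosine is read as thymine, and the methylation level of a site is its methylated reads over all reads. Every deposited site had at least 5 reads in its library, and 3168726 sites were shared by both libraries. The windows of the 36 genes held 6802 shared sites, with a median depth of 16 reads in SKNO-1 and 17 reads in SKNO1-siAE. There was 1 library per cell line and no replicate, so every difference compares 2 libraries and not the conditions, and the intervals given cover counting error only.

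Imprints are set in the germ line as DNA methylation of a control region on the copy from the mother or on the copy from the father, and they are held through cell division by proteins that recruit DNA methyltransferase to the methylated copy. A cell that keeps both parental copies and its imprint therefore has 1 methylated and 1 unmethylated copy of the control region. A level from 0.3 to 0.7, called intermediate here, is what such a cell gives. The same level also arises when cells with both copies methylated are mixed with cells with none, and these cases cannot be told apart from counts of single sites. Changes of imprinted control regions are known from many tumors and cultured lines, where a control region can become fully methylated, fully unmethylated, or be left with copies from 1 parent.

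The windows were divided into 500 bp tiles with at least 5 shared sites, and the level of a tile was the mean of its site levels. The 36 genes held 309 such tiles, against 109114 tiles in the windows of all annotated genes, which served as the background. A total of 24 tiles (7.77%) were intermediate in both libraries, against 5.21% of the background tiles. This count fell to 10 on the + strand alone (4.57%, against 4.31%), to 13 on the - strand alone (6.02%, against 4.25%) and to 10 when the median site also had to be intermediate (3.24%, against 1.45%). Another 26 tiles (8.41%) were intermediate in SKNO-1 and at least 0.2 away and outside the range in SKNO1-siAE, against 7.67%. With at least 10 sites per tile, this count fell to 14 (6.22%, against 6.66%). The reverse, intermediate in SKNO1-siAE and not in SKNO-1, held for 31 tiles (10.0%), against 5.11%. Most tiles of these genes were high (above 0.7) in both libraries, 163 of them (52.8%), against 47.6%. Only 37 tiles (12.0%) were low (below 0.3) in both libraries, against 25.6%. Tiles low in SKNO-1 and high in SKNO1-siAE numbered 11 (3.56%, against 3.80%), and tiles high in SKNO-1 and low in SKNO1-siAE numbered 3 (0.971%, against 0.953%). The share of tiles intermediate in SKNO1-siAE only was thus about 2 times that of the background (14 tiles, 6.11% against 4.76%, with at least 10 reads per site), the share intermediate in SKNO-1 only was near it, and the share low in both was below it. Of the 31 tiles intermediate in SKNO1-siAE only, 15 lay among the 51 tiles of 5 loci in 1 domain, chromosome 11p15. They are not separate observations.

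**Figure D1:**
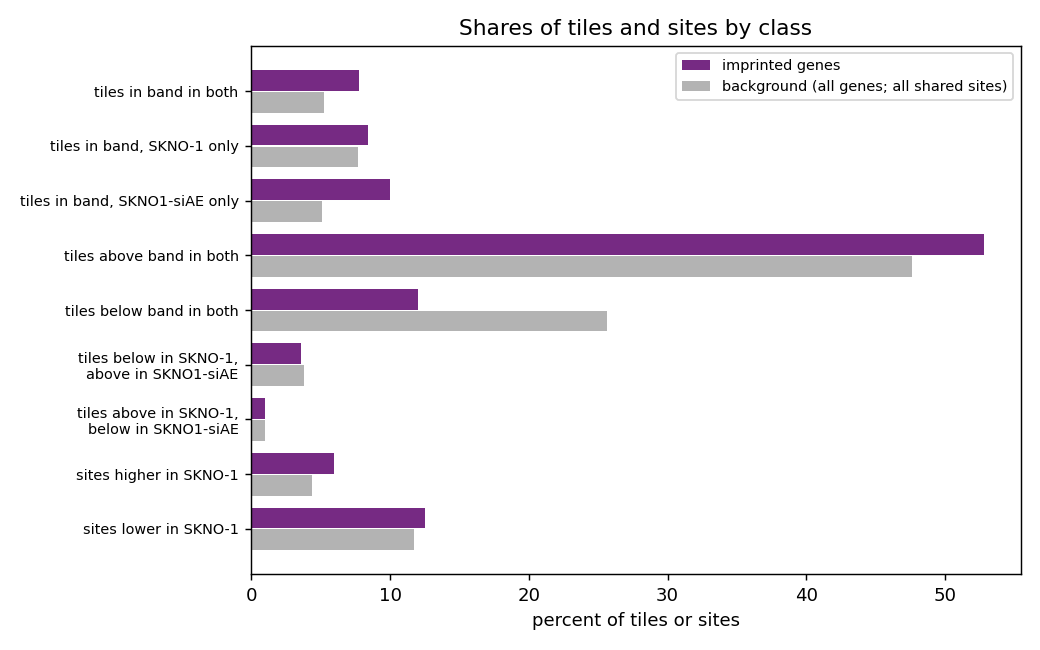
Percent of 500 bp tiles in each class of levels and percent of single sites that differed (horizontal axis), for the imprinted genes (purple) and the background (grey; tiles of all annotated genes, or all shared sites). The largest gap is in tiles below the range of 0.3 to 0.7 in both libraries, 12.0% against 25.6%.

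Single sites were compared by a 2-sided Fisher's exact test of the methylated and unmethylated reads. P-values were adjusted by Benjamini-Hochberg across the shared sites of the genome, and calls needed an adjusted value under 0.05 and levels 0.2 or more apart. Among the 6802 sites of the imprinted genes, 406 (5.97%) were higher in SKNO-1, against 4.40% of all shared sites, and 851 (12.5%) were lower in SKNO-1, against 11.7%. The share of lower sites was slightly below that of all sites with at least 10 reads per site (13.5%, against 13.6%). The same held with Bonferroni adjustment (2.15%, against 2.28%). Sites intermediate in both libraries made up 3.12% of the sites of these genes and 1.39% of the sites in the windows of all genes. Averaged over all of its sites, 21 of the 30 loci were lower in SKNO-1 and 9 were higher. Counted by gene, 25 of the 36 (69.4%) were lower in SKNO-1, against 66.5% of all genes. The mean over all sites was 0.660 in SKNO-1 and 0.719 in SKNO1-siAE for the imprinted genes, against 0.515 and 0.578 for all genes, so that the shift toward lower levels in SKNO-1 was much the same in both. The median difference of a tile, SKNO-1 minus SKNO1-siAE, was -0.0135 for these genes and -0.00925 for all genes.

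**Figure D2:**
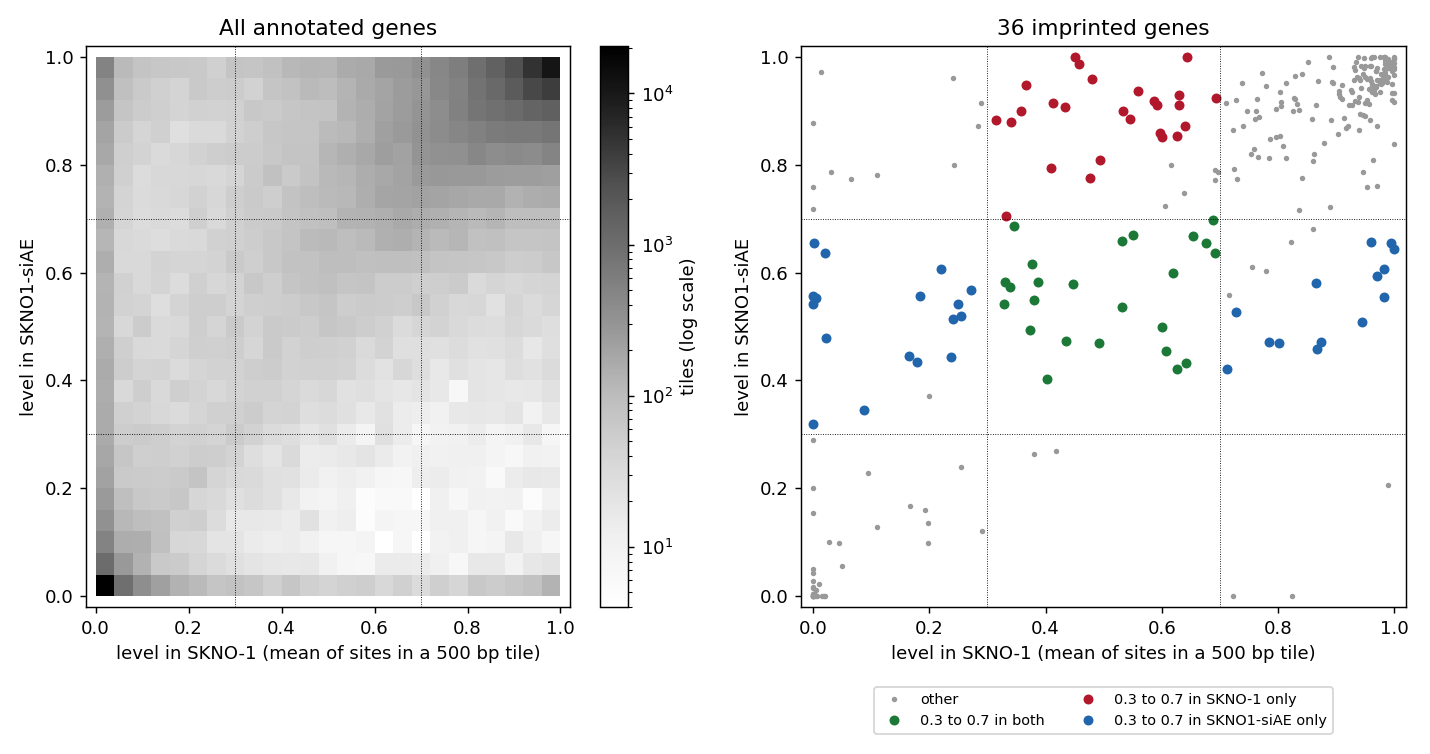
Level of each 500 bp tile in SKNO-1 (horizontal axis) and in SKNO1-siAE (vertical axis), as a density on a log colour scale for the 109114 tiles of all annotated genes (left) and as points for the 309 tiles of the imprinted genes (right), with dotted lines at 0.3 and 0.7. Green points are the 24 tiles intermediate in both libraries, red points the 26 in SKNO-1 only and blue points the 31 in SKNO1-siAE only.

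A run of neighbouring tiles with the same pair of classes was joined into a stretch, and each locus was represented by its longest stretch, by number of sites, that was intermediate in at least 1 library. By this measure, 3 loci were intermediate in both libraries: L3MBTL1, HM13 and GNAS/GNAS-AS1. In 9 loci the stretch was intermediate in SKNO-1 and high in SKNO1-siAE: IGF2, SNRPN/SNURF, NDN, MAGEL2, MEG3, PLAGL1/HYMAI, GRB10, NAP1L5 and INPP5F. In 7 loci it was high in SKNO-1 and intermediate in SKNO1-siAE: KCNQ1OT1, MKRN3, DLK1, PEG3/ZIM2, PEG10/SGCE, BLCAP/NNAT and ZDBF2. In 4 loci it was low in SKNO-1 and intermediate in SKNO1-siAE: H19, CDKN1C, PHLDA2 and MEST. These stretches were chosen for being intermediate in a library, and the same choice was not made for all genes. The counts of loci are therefore not a result about imprinted genes. In GRB10 and INPP5F the stretch lies outside the imprinted inner start, which was high in both libraries. These classes rest on the mean over sites, and in the intermediate library fewer than 15% of the sites were themselves intermediate in IGF2, NDN, MEG3, NAP1L5, PHLDA2 and BLCAP/NNAT. Unlike the tile counts, the classes did not need a difference of 0.2, and MEG3 (-0.0977), MKRN3 (0.165) and BLCAP/NNAT (0.181) differed by less. By the tile rule, MKRN3 had 1 tile intermediate in SKNO-1 only and 0 in SKNO1-siAE only, and MEG3 had 0 and 1. Both go against the class of the stretch. The other 7 loci had no intermediate stretch and are represented by the stretch that holds the tile with the most sites. In RTL1, DIRAS3, FAM50B, IGF2R, AIRN and PEG13 that stretch was high in both libraries, and in RB1 it was low in both.

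**Figure D3:**
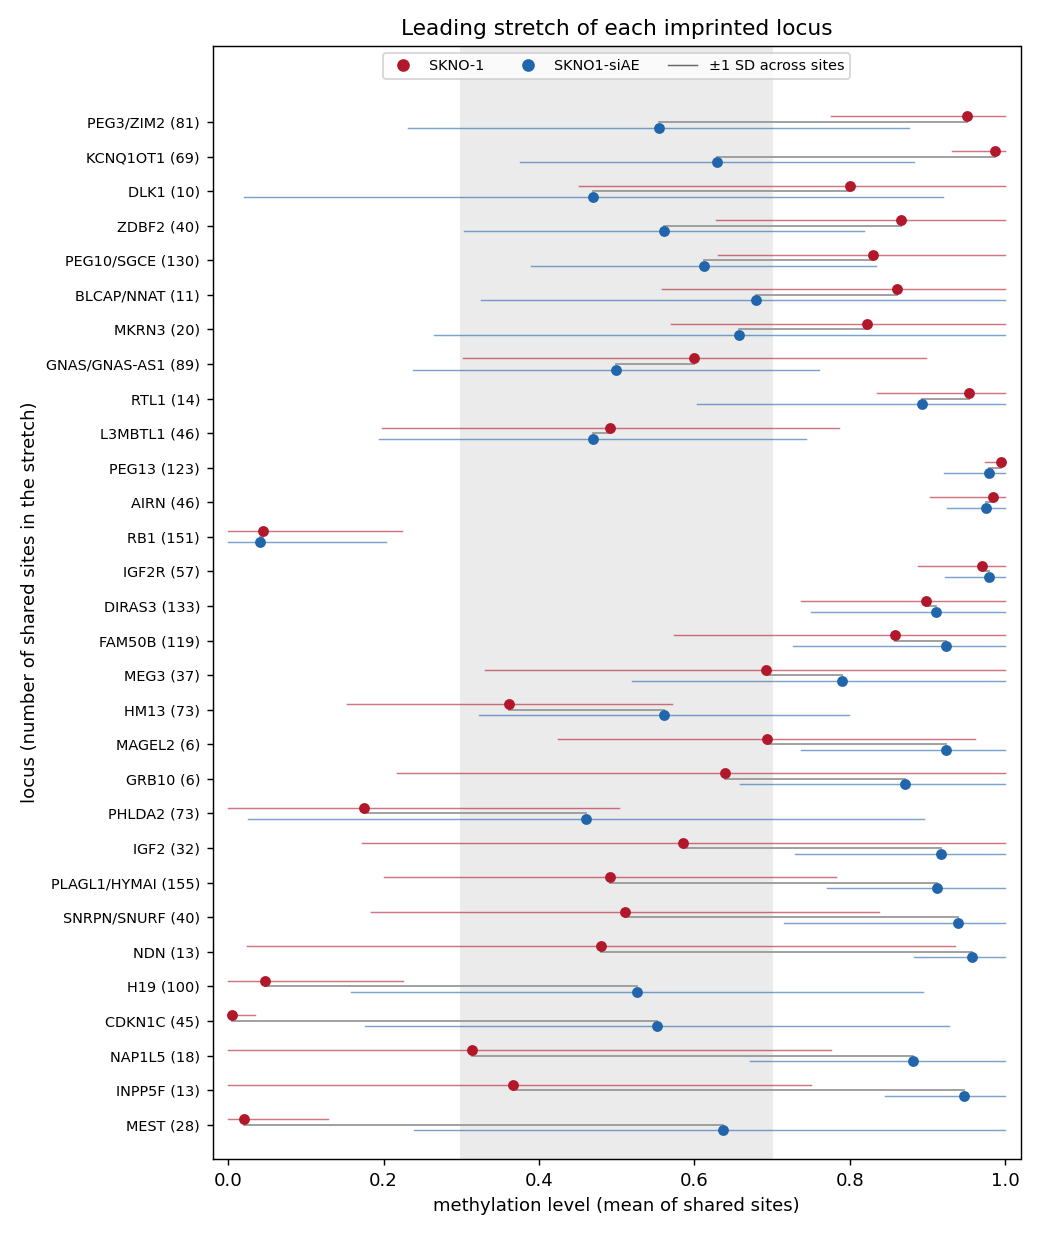
Methylation level (horizontal axis, mean over the shared sites) of the leading stretch of each of the 30 loci in SKNO-1 (red) and SKNO1-siAE (blue), with coloured lines for 1 SD across sites on each side (cut at 0 and 1), grey lines joining the libraries and the range of 0.3 to 0.7 shaded; the number of sites is in brackets. Loci are ordered by the difference, from PEG3/ZIM2 (0.951 against 0.554) at the top to MEST (0.0204 against 0.637) at the bottom.

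L3MBTL1 encodes a chromatin-compacting protein and lies on the long arm of chromosome 20, in a part that is often deleted in myeloid malignancies. Its stretch at chr20:42143016-42143373, in a coding exon at the start of the L3MBTL1-211 transcript, had a level of 0.492 in SKNO-1 and 0.469 in SKNO1-siAE over 46 sites. The pooled reads were 813 methylated of 1517 in SKNO-1 and 337 of 700 in SKNO1-siAE, with 95% Wilson intervals of 0.511 to 0.561 and 0.445 to 0.518. The intermediate level was also that of single sites, since 60.9% of the sites in SKNO-1 and 47.8% in SKNO1-siAE were themselves between 0.3 and 0.7. None of the 46 sites was called higher in SKNO-1 and 4 were called lower. The strands differed more than the libraries, with 0.650 (+) and 0.321 (-) in SKNO-1 and 0.598 and 0.328 in SKNO1-siAE. The difference of 0.0233 between the libraries became -0.0753 over 28 sites with at least 10 reads. The tile centred about 1 kb upstream, at chr20:42142006-42142495, had 0.402 in both libraries.

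HM13 encodes signal peptide peptidase, and its introns hold MCTS2, an imprinted retrogene transcribed from the paternal copy. The stretch at chr20:30134808-30135496, which covers the MCTS2 coding exon, had a level of 0.362 in SKNO-1 and 0.561 in SKNO1-siAE over 73 sites. The reads were 1051 of 2727 (interval 0.367 to 0.404) and 1026 of 1745 (0.565 to 0.611). Of these sites, 56.2% and 57.5% were intermediate. The level was within the range in both libraries, but 20 sites were called lower in SKNO-1 and 6 higher. The difference between the libraries by strand was -0.0525 (+) and -0.359 (-), and the - strand of SKNO-1 had 0.298, just under the range. The main HM13 start at chr20:30102002-30102856 was unmethylated, with 0.00745 and 0.0151. The 300 bases with the most shared sites in the MCTS2 stretch, and those of a stretch in the AIRN exon inside IGF2R, about 1 kb downstream of the annotated AIRN start, which was methylated in both libraries, are shown as examples of a control region that was intermediate in both libraries and one that was not. They lie at chr20:30134882-30135181 and chr6:160427352-160427651 of hg19 and are written for the + strand, with capitals at each CpG that had a shared site.
HM13: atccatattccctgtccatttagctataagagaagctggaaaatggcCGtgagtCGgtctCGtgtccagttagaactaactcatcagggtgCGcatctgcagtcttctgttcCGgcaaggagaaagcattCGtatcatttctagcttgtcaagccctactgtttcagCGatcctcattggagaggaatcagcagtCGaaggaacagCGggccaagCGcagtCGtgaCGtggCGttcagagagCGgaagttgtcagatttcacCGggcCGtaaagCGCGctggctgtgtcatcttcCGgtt
AIRN: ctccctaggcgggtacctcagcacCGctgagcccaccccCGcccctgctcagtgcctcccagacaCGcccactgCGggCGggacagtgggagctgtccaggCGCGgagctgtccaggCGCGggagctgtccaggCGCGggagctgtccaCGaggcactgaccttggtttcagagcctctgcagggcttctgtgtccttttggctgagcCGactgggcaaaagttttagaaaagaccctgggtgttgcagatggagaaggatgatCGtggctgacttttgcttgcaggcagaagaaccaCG
Over these bases, the HM13 window had 0.415 in SKNO-1 and 0.621 in SKNO1-siAE, and the AIRN window had 0.998 and 0.978.

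GNAS encodes the stimulatory G protein alpha subunit and uses several alternative first exons with different imprints. At the start of the untranslated A/B transcripts, whose control region is methylated on the maternal copy, the stretch at chr20:57463503-57464000 had 0.60 in SKNO-1 and 0.499 in SKNO1-siAE over 89 sites. The reads were 1030 of 1635 (interval 0.606 to 0.653) and 1190 of 2265 (0.505 to 0.546). As in L3MBTL1, the strands differed more than the libraries: the + and - strand had 0.842 and 0.365 in SKNO-1 and 0.615 and 0.385 in SKNO1-siAE, and the difference between the libraries by strand was 0.226 (+) and -0.0201 (-). Next to it, chr20:57464001-57464225 had 0.713 and 0.421 over 48 sites, and chr20:57465007-57465200 had 0.642 and 0.432 over 47 sites, and the value in SKNO1-siAE averages 0.781 (+ strand) and 0 (- strand), with a pooled level of 0.653. By their means over both strands, these parts of the A/B region were intermediate or close to it in both libraries. The start of the main exon itself, at chr20:57465622-57467904, was unmethylated, with 0.00824 and 0.00836. Farther upstream, near the start of the extra-large (XL) transcript, chr20:57427503-57428500 had 0.608 in SKNO-1 and 0.826 in SKNO1-siAE over 70 sites. The region of GNAS-AS1, the antisense RNA, at chr20:57425504-57427496 was high, with 0.872 and 0.931 over 124 sites. The NESP region at chr20:57415045-57417393, methylated on the paternal copy in normal tissue, was also high, with 0.876 and 0.928 over 133 sites. Around the NESP start itself, chr20:57414521-57414963 had 0.332 in SKNO-1 and 0.705 in SKNO1-siAE over 20 sites. The leading stretch of the locus thus lay in the A/B region, while the stretches at chr20:57415045 and chr20:57425504 were high in both libraries. Outside the windows, in the body of GNAS-AS1, the tile chr20:57408501-57409000 had site means of 0.324 and 0.676 over 12 sites, but 32 of 320 reads in SKNO-1 and 160 of 277 in SKNO1-siAE were methylated.

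Intermediate levels in both libraries were also found in shorter parts of other loci, and 12 loci held at least 1 such tile. Counted by gene, 14 of the 36 (38.9%) held one, against 17.1% of all genes with a tile, but the imprinted genes had a median of 7 tiles each and all genes a median of 3. In PEG10/SGCE, the tile at the start of SGCE, which encodes epsilon-sarcoglycan, had 0.531 and 0.536 over 15 sites, but as means of unlike sites: none was itself intermediate in SKNO-1 and 5 were in SKNO1-siAE. In MEST, chr7:130125511-130125985 in an exon of its antisense RNA MESTIT1 had 0.691 and 0.636 over 26 sites, of which 5 and 21 were themselves intermediate, and the pooled level in SKNO-1 was above the range at 0.786 (713 of 907 reads). In MEG3, 5 tiles within the transcribed region were intermediate in both libraries, among them chr14:101309348-101309811 with 0.577 and 0.665 over 33 sites, of which 15 and 3 were themselves intermediate.

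**Figure D4:**
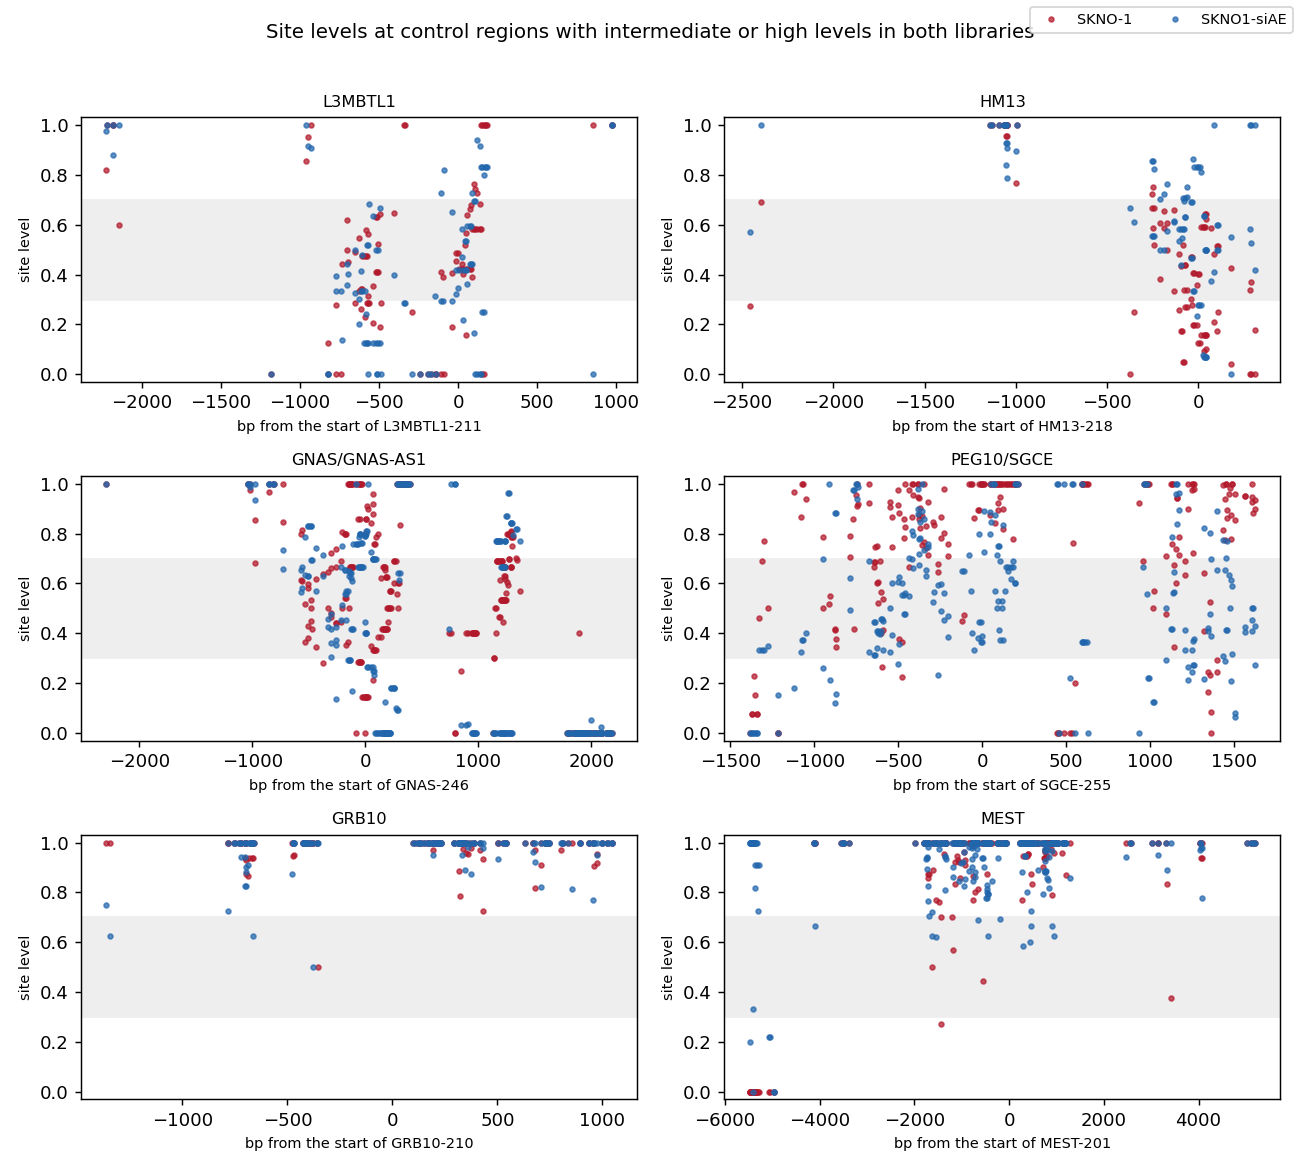
Methylation level of single shared sites (vertical axis) against the distance in bp from the named transcript start (horizontal axis, positive downstream) in SKNO-1 (red) and SKNO1-siAE (blue) at 6 loci, with 0.3 to 0.7 shaded. Sites of L3MBTL1, HM13, GNAS/GNAS-AS1 and PEG10/SGCE spread through the shaded range, whereas most sites of GRB10 and MEST lie above it in both libraries.

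The imprinted domain at chromosome 11p15 has 2 control regions. The first lies upstream of H19, a non-coding RNA made from the maternal copy, and is methylated on the paternal copy. When unmethylated it binds the insulator protein CTCF, which keeps the enhancers from IGF2, a fetal growth factor. The leading H19 stretch at chr11:2020504-2022499, in exons of long H19 transcripts upstream of the main gene, had a level of 0.0468 in SKNO-1 and 0.526 in SKNO1-siAE over 100 sites. The reads were 37 methylated of 1014 (interval 0.0266 to 0.0499) and 972 of 1936 (0.480 to 0.524). None of the 100 sites was called higher in SKNO-1, and 43 were called lower. Directly next to it, chr11:2020028-2020497 had 0.358 in SKNO-1 (134 of 315 reads) and 0.899 in SKNO1-siAE (450 of 484). Beyond that, chr11:2019702-2019983 had 0 of 249 methylated reads in SKNO-1 and 243 of 306 in SKNO1-siAE, with levels of 0 and 0.878. A count of 0 is taken here to allow up to 3 reads, which at this depth is a level of up to 0.0120. On the other side, chr11:2023447-2023999 had 0.0214 and 0.778. Farther upstream, chr11:2025697-2025939 was intermediate in both libraries, with 0.330 and 0.582 over 15 sites, and chr11:2026635-2026998 was high in both, with 0.773 and 0.969 over 57 sites. Almost unmethylated stretches of SKNO-1 thus alternated with stretches at 0.330 or more, and each of these stretches was lower in SKNO-1. Nearer to and within the main H19 gene the levels were uneven: chr11:2016513-2016975 was high in both libraries, with 0.764 and 0.922, chr11:2018003-2018096 had 0.559 and 0.936, and chr11:2017036-2017494 and chr11:2018725-2018853 were intermediate in both, with 0.338 and 0.574 over 10 sites and 0.381 and 0.549 over 7 sites.

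The CTCF core of the H19 control region was searched on both strands as CCGC, 2 free bases, GG, 1 free base and GGCAG. It had 5 matches in the H19 windows, each on the - strand. Since the pattern is that of H19 itself, matches there were fixed in advance and are not a result. At least 1 match lay in 4 of the 17 H19 tiles (23.5%), and the same core occurred in 0.203% of the tiles of all genes. Shared sites lay in 3 of the matches, which are shown because they carry the difference at single motifs. Capitals mark CpG.
H19 core 1, chr11:2021198-2021211: cCGCGCGgCGgcag
H19 core 2, chr11:2023443-2023456: cCGCGCGgCGgcag
H19 core 3, chr11:2023844-2023857: cCGCGCGgCGgcag
In core 1, SKNO-1 had 0 methylated of 24 reads and SKNO1-siAE had 63 of 107. In core 2, the reads were 0 of 20 and 28 of 44. In core 3, they were 0 of 28 and 56 of 84. All reads of SKNO-1 at these 3 cores were unmethylated, although depth was low there and 0 methylated reads allow levels of up to 0.125, 0.150 and 0.107. Another match, at chr11:2022010-2022023, had no shared site, and the sites within 100 bp of it had 1 methylated of 129 reads in SKNO-1 and 90 of 292 in SKNO1-siAE.

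At a start of IGF2 itself, at chr11:2162027-2162484, in an untranslated exon that IGF2-AS and INS-IGF2 overlap, the level was 0.586 in SKNO-1 and 0.918 in SKNO1-siAE over 32 sites. The reads were 271 of 414 (interval 0.608 to 0.699) and 462 of 491 (0.916 to 0.959). A total of 11 sites were called lower in SKNO-1 and none higher. The sites did not share that mean: their SD was 0.414 in SKNO-1 and only 12.5% of them were intermediate. In the IGF2 coding exon, chr11:2161342-2161664 was high in both, with 0.983 and 0.955.

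The second control region of 11p15 is the promoter of KCNQ1OT1, a long non-coding RNA of the paternal copy that silences its neighbours in cis, and it is methylated on the maternal copy. The KCNQ1OT1 stretch at chr11:2720160-2721384, in a KCNQ1 intron, had 0.987 in SKNO-1 and 0.629 in SKNO1-siAE over 69 sites. The reads were 1124 of 1139 (interval 0.978 to 0.992) and 664 of 1052 (0.602 to 0.660). A total of 29 sites were called higher in SKNO-1 and none lower. In SKNO-1 1.45% of the sites were intermediate, against 56.5% in SKNO1-siAE. Upstream of the start, chr11:2721867-2721993 had 0.989 and 0.206, chr11:2722020-2722441 had 0.945 and 0.508, and chr11:2722536-2722786 had 0.997 and 0.920. In SKNO-1 the region was methylated on nearly all reads, and in SKNO1-siAE its parts ranged from low to high. At 11p15, then, the leading H19 stretch was nearly unmethylated and the leading KCNQ1OT1 stretch nearly fully methylated in SKNO-1, and both of these stretches were intermediate in SKNO1-siAE. The 300 bases of the KCNQ1OT1 stretch with the most shared sites lie at chr11:2720202-2720501 (+ strand, capitals at each CpG with a shared site) and had 0.995 and 0.678.
KCNQ1OT1: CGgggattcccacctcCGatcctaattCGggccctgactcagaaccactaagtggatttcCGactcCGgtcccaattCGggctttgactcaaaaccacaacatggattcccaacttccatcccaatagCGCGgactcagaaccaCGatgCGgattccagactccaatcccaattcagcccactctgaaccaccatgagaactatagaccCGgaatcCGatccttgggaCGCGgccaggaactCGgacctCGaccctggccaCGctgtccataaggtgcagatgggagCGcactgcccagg

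CDKN1C, an inhibitor of cyclin-dependent kinases, and PHLDA2, a growth-restraining gene of placenta, are targets of this domain and carry no germline imprint of their own. In a CDKN1C coding exon, chr11:2906567-2906990 had levels of 0.00444 in SKNO-1 and 0.552 in SKNO1-siAE over 45 sites. The reads were 1 of 314 (interval 0.000562 to 0.0178) and 343 of 656 (0.485 to 0.561). With at least 10 reads per site, 7 sites remained and the difference was -0.914 in place of -0.547. The next stretch upstream, chr11:2907008-2907132, was unmethylated in both, with 0 of 160 reads (a level of up to 0.0187) and 0.0429. PHLDA2 had 0.175 and 0.461 at chr11:2951001-2952174, upstream of the gene, over 73 sites. The reads were 201 of 920 (interval 0.193 to 0.246) and 688 of 1292 (0.505 to 0.560). The difference by strand was -0.456 (+) and -0.181 (-), and 8 of the 73 sites in SKNO1-siAE were themselves intermediate. The same gene had 0 of 192 and 0 of 356 methylated reads around its start, at chr11:2950544-2950991, which allows levels of up to 0.0156 and 0.00843. No PHLDA2 site was called higher in SKNO-1 and 34 of 117 were called lower.

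On chromosome 15, the Prader-Willi domain has its control region at the start of SNRPN and SNURF, which encode a spliceosomal protein and a small nuclear protein from 1 transcript. It is methylated on the maternal copy. The SNRPN/SNURF stretch at chr15:25199544-25200479, in a SNURF coding exon and SNRPN untranslated exons, had 0.511 in SKNO-1 and 0.939 in SKNO1-siAE over 40 sites. The reads were 348 of 630 (interval 0.513 to 0.591) and 526 of 574 (0.891 to 0.936). A total of 16 sites were called lower in SKNO-1 and 1 higher, and 45.0% of the sites were intermediate in SKNO-1 and 0% in SKNO1-siAE. The 250 bases of this stretch with the most shared sites, outside annotated untranslated exons, lie at chr15:25200220-25200469 (+ strand) and had 0.507 and 0.983.
SNRPN/SNURF: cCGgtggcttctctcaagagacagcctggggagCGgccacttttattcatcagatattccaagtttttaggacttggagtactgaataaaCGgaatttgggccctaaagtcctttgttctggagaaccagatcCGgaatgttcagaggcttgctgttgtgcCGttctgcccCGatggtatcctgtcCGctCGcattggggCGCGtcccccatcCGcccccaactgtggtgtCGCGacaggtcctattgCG

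The other genes of this domain take their methylation from the SNRPN region. NDN, the growth suppressor necdin, had 0.480 in SKNO-1 and 0.958 in SKNO1-siAE at chr15:23932683-23932997, upstream of its start, over 13 sites. The reads were 340 of 644 (interval 0.489 to 0.566) and 255 of 274 (0.894 to 0.955). The SKNO-1 value is a mean of unlike sites, since only 7.69% of the sites were themselves intermediate and their SD was 0.456. MAGEL2, which acts in a ubiquitin ligase complex, had 0.693 and 0.924 over 6 sites at chr15:23895616-23895782. The reads were 71 of 91 (interval 0.685 to 0.853) and 69 of 74 (0.851 to 0.971). From pooled reads SKNO-1 was above the range at 0.780, and the difference was -0.152 in place of -0.231. Near its start, chr15:23892657-23892858 in the coding exon had 0.724 and 0.792 over 16 sites. Upstream of the start, chr15:23894198-23895161 was low, with 0 of 382 reads (a level of up to 0.00785) and 0.136. MKRN3, a gene known for its part in the timing of puberty, was higher in SKNO-1 near its start. At its start, chr15:23810572-23811411 had 0.769 in SKNO-1 and 0 in SKNO1-siAE over 28 sites, all on the + strand, from 411 of 530 and 0 of 390 reads, the latter allowing a level of up to 0.00769. Farther into the coding exon the order turned, with 0.644 in SKNO-1 and 63 of 63 reads methylated in SKNO1-siAE over 8 sites at chr15:23812277-23812458. Upstream of the start, chr15:23810163-23810379 had 0.822 and 0.657. The reads were 1104 of 1309 (interval 0.823 to 0.862) and 317 of 479 (0.618 to 0.703). The median site had 0.942 and 0.952, and 4 of the 20 sites in SKNO1-siAE were intermediate. NDN, MAGEL2 and SNRPN/SNURF were thus lower in SKNO-1, while MKRN3 was higher in SKNO-1 at 33 of 86 sites and lower at 3.

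PEG3 encodes a zinc finger protein of the paternal copy and shares its promoter with ZIM2. The PEG3/ZIM2 stretch at chr19:57350002-57351331, in introns of both genes, had 0.951 in SKNO-1 and 0.554 in SKNO1-siAE over 81 sites, from 1170 of 1230 (interval 0.938 to 0.962) and 788 of 1257 (0.600 to 0.653) reads. A total of 27 sites were called higher in SKNO-1 and none lower. With at least 10 reads per site, the difference over the remaining 41 sites was 0.249 in place of 0.397. Across the transcript start, chr19:57351640-57352949 was high in both, with 0.874 and 0.921 over 99 sites, so that the intermediate level in SKNO1-siAE covered the intronic side. Far inside the genes, chr19:57335673-57336315 had 0.421 and 0.818. The 300 bases with the most shared sites at chr19:57350002-57350301 (+ strand) had 0.973 and 0.730, and held 2 matches of the hexamer TGCCGC.
PEG3/ZIM2: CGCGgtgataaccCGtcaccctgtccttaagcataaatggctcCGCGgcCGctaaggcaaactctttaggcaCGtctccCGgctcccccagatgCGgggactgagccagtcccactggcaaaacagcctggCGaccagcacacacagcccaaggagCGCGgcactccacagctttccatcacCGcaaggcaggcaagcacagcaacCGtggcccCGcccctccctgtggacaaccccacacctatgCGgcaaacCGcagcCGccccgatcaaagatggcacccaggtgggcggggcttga

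PEG10, a gene derived from a retrotransposon, and SGCE are transcribed in opposite directions from 1 control region. At chr7:94285672-94286963, the PEG10/SGCE stretch had 0.830 in SKNO-1 and 0.612 in SKNO1-siAE over 130 sites, with 51 sites called higher in SKNO-1 and 6 lower. The reads were 5348 of 6836 (interval 0.772 to 0.792) and 3235 of 5322 (0.595 to 0.621). In SKNO1-siAE, 81 of the 130 sites were intermediate, against 26 in SKNO-1. On the SGCE side, chr7:94284258-94284951 had 0.784 and 0.505 over 68 sites. ZDBF2, a zinc finger gene with a region near it that is methylated on the paternal copy, had 0.866 and 0.561 over 40 sites at chr2:207139041-207139996. The reads were 760 of 869 (interval 0.851 to 0.895) and 646 of 1070 (0.574 to 0.633). It had 0.608 and 0.455 in the adjacent tile chr2:207140003-207140479, where 2 of 21 sites in SKNO-1 and 10 in SKNO1-siAE were themselves intermediate and the strands of SKNO-1 had 0.899 and 0.343. DLK1, a Notch-related ligand, was high over most of its window, with 0.914 and 0.874 over 154 sites at chr14:101192143-101194414, and 1 tile of 10 sites downstream of it had 0.801 and 0.470. The reads were 82 of 101 (interval 0.725 to 0.876) and 47 of 114 (0.326 to 0.504). The 10 sites differed widely, with an SD of 0.350 and 0.450, and the difference by strand was 0.551 (+) and 0.111 (-).

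PLAGL1 encodes a zinc finger protein that restrains growth, and HYMAI is the non-coding RNA made from the same start on the paternal copy. The stretch at chr6:144329001-144329998, in a PLAGL1 untranslated exon and the HYMAI exon, had 0.491 in SKNO-1 and 0.913 in SKNO1-siAE over 155 sites. The reads were 1929 of 3670 (interval 0.509 to 0.542) and 2512 of 2716 (0.914 to 0.934), and 78 sites were called lower in SKNO-1 and 4 higher. In SKNO-1, 43.9% of the sites were intermediate, against 5.16% in SKNO1-siAE. The difference by strand was -0.531 (+) and -0.234 (-). The upstream PLAGL1 start that is not imprinted, at chr6:144385232-144385918, was unmethylated in both libraries, with 0.00139 and 0.00347. The 300 bases with the most shared sites at chr6:144329664-144329963 (+ strand) had 0.493 and 0.915.
PLAGL1/HYMAI: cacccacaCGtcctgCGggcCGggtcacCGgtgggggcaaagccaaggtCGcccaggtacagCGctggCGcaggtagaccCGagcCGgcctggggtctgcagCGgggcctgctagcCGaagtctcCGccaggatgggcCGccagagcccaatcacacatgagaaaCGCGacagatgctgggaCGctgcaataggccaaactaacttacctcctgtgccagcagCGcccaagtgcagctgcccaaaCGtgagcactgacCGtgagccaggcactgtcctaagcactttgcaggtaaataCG

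NAP1L5, a retrogene within an intron of HERC3, showed the largest difference of all 30 loci when averaged over its sites, 0.266 in SKNO-1 and 0.942 in SKNO1-siAE over 94 sites. At its start, chr4:89618555-89619421, 64 sites had 0.128 and 0.966, and farther into its single exon chr4:89618004-89618447 had 0.314 and 0.882. The reads were 248 of 619 (interval 0.363 to 0.440) and 403 of 433 (0.903 to 0.951). In this second stretch 5.56% of the sites in SKNO-1 were themselves intermediate, and the difference was -0.261 on the 5 sites of the + strand and -0.687 on the 13 of the - strand. Over the locus, 69 sites were called lower in SKNO-1 and 1 higher. By the means over sites, the control region was therefore mostly unmethylated in SKNO-1 and methylated in SKNO1-siAE, and was intermediate as a whole in neither library. INPP5F, a phosphoinositide phosphatase, was unmethylated at its main start and had 0.367 and 0.947 over 13 sites at chr10:121486176-121486341. The reads were 54 of 142 (interval 0.305 to 0.462) and 63 of 67 (0.856 to 0.977). The imprinted inner start of INPP5F, at chr10:121577531-121578860, was high, with 0.980 and 0.964 over 123 sites. MEST, an enzyme of the alpha/beta hydrolase fold, differed at an upstream start. There, chr7:130126019-130126493 had levels of 0.0204 and 0.637 over 28 sites. The reads were 4 of 226 (interval 0.00690 to 0.0446) and 208 of 362 (0.523 to 0.624). The strands of SKNO1-siAE had 0.911 (+, above the range) and 0.507 (-). Next to it, chr7:130126507-130126966 had 0 of 202 reads (a level of up to 0.0149) and 0.717.

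**Figure D5:**
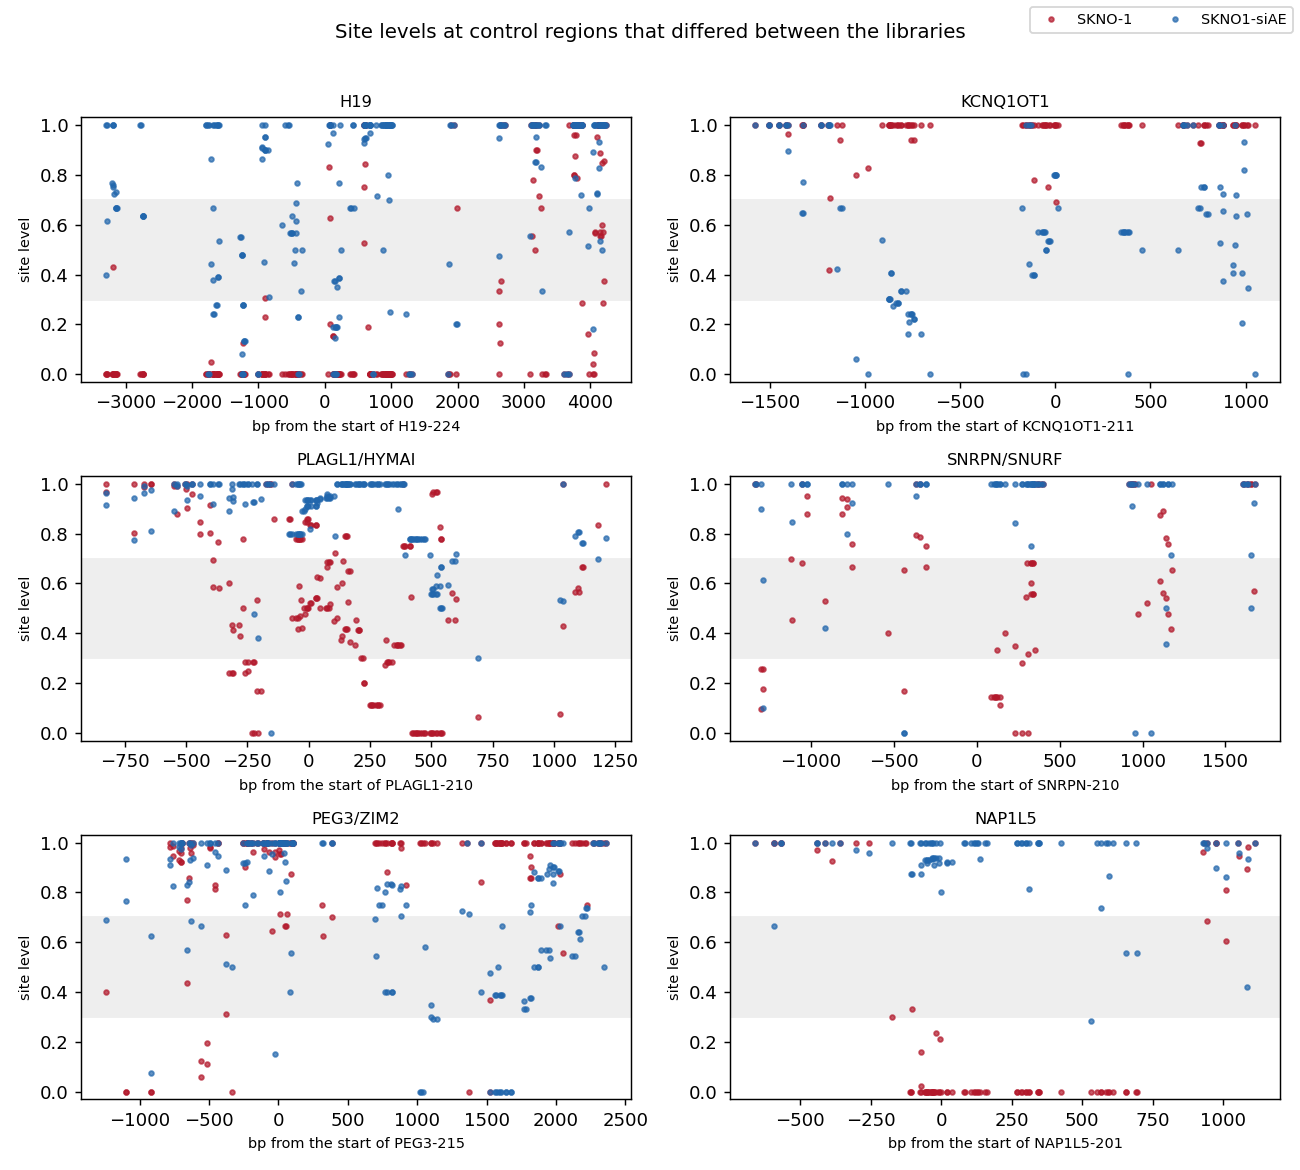
Methylation level of single shared sites (vertical axis) against the distance in bp from the named transcript start (horizontal axis, positive downstream) in SKNO-1 (red) and SKNO1-siAE (blue) at 6 loci that differed, with 0.3 to 0.7 shaded. Sites of SKNO-1 lie mostly near 0 at H19 and NAP1L5 and near 1 at KCNQ1OT1, and fill the shaded range at PLAGL1/HYMAI and SNRPN/SNURF, where those of SKNO1-siAE lie mostly above it.

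Many control regions were high in both libraries. GRB10, an adaptor that dampens insulin signalling, had 0.982 in SKNO-1 and 0.977 in SKNO1-siAE over 141 sites at its imprinted inner start, chr7:50849096-50850925. Its only intermediate tile, chr7:50798550-50798679 in an intron, had 0.640 and 0.871 over 6 sites. The reads were 40 of 74 (interval 0.428 to 0.649) and 73 of 79 (0.844 to 0.965). This difference of -0.231 was -0.580 on the 2 sites of the + strand and -0.0568 on the 4 of the - strand. The main MEST start, chr7:130130122-130133221, had 0.974 and 0.960 over 284 sites. NNAT, a small membrane protein, lies within BLCAP, and the run of 12 tiles that covers it, chr20:36146069-36152924, had 0.958 and 0.960 over 323 sites. Beside it, chr20:36153038-36153480 in a BLCAP intron had 0.861 and 0.680 over 11 sites. The reads were 182 of 198 (interval 0.873 to 0.950) and 171 of 241 (0.649 to 0.763). The pooled level of 0.710 in SKNO1-siAE was above the range, none of its sites was intermediate, and with at least 10 reads per site the difference was 0.350 over 6 sites in place of 0.181. DIRAS3, a Ras-related growth suppressor, had 0.898 and 0.911 over 133 sites at chr1:68515738-68517365. The reads were 3601 of 4031 (interval 0.883 to 0.902) and 3732 of 4124 (0.896 to 0.914). FAM50B, a retrogene of the paternal copy, had 0.858 and 0.924 over 119 sites at chr6:3848634-3850174. The reads were 1822 of 2232 (interval 0.800 to 0.832) and 1501 of 1655 (0.892 to 0.920). AIRN, the antisense RNA whose start lies in an intron of IGF2R, had 0.985 and 0.975 over 46 sites at chr6:160426864-160427651. The reads were 754 of 768 (interval 0.970 to 0.989) and 829 of 852 (0.960 to 0.982). PEG13, a non-coding RNA in an intron of TRAPPC9, had 0.995 and 0.980 over 123 sites. The reads were 2446 of 2460 (interval 0.990 to 0.997) and 2968 of 3035 (0.972 to 0.983). The stretches of these 7 genes, leaving out the small tiles of GRB10 and BLCAP/NNAT, differed by less than 0.1 between the libraries, but with at least 10 reads per site FAM50B differed by -0.112 in place of -0.0663.

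MEG3, a non-coding RNA of the maternal copy on chromosome 14, is controlled together with DLK1 and RTL1, and its promoter is methylated on the paternal copy. The 7 tiles at chr14:101291544-101294565 had 0.867 in SKNO-1 and 0.899 in SKNO1-siAE over 217 sites. The leading stretch next to them, chr14:101291005-101291500, lay at the edge of the range, with 0.692 and 0.790. The reads were 529 of 756 (interval 0.666 to 0.731) and 668 of 827 (0.779 to 0.833). With at least 10 reads per site, this difference of -0.0977 became -0.0287. RTL1, a retrotransposon-derived gene needed in placenta, had 14 shared sites near its start, with 0.954 and 0.893. The reads were 142 of 148 (interval 0.914 to 0.981) and 74 of 83 (0.807 to 0.942). The promoter of MEG3 was thus high in both libraries.

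Some other starts, among them the main starts of RB1 and IGF2R, had means over sites below 0.1 in both libraries. RB1, the retinoblastoma cell-cycle regulator, had 0.0451 and 0.0409 over 151 sites at its main start, chr13:48877028-48878823. The reads were 125 of 3098 (interval 0.0340 to 0.0479) and 138 of 3383 (0.0346 to 0.0480). Its imprinted CpG island lies in an intron, outside the windows used above, and was looked at after these values were seen. From chr13:48890336 to 48895554, 289 sites had 0.948 in SKNO-1 and 0.963 in SKNO1-siAE, and of the 10 tiles with at least 5 sites none was below 0.881 and 0.935. IGF2R, the receptor that clears IGF2, had 0.0470 and 0.0342 over 59 sites at its main start, chr6:160389536-160390947, where 146 of 957 and 271 of 1676 reads were methylated (0.153 and 0.162), whereas chr6:160511896-160512786 in an intron was high, with 0.970 and 0.979 over 57 sites. The reads were 1007 of 1037 (interval 0.959 to 0.980) and 1811 of 1855 (0.968 to 0.982). The outer GRB10 start at chr7:50860056-50861488 had 0.0845 and 0.0659, and the BLCAP start at chr20:36155854-36156961 had 0.0482 and 0.0578, with 289 of 2341 and 146 of 2333 reads methylated. By their means over sites, these 4 starts differed by less than 0.1 between the libraries.

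The loci also differed in the reads they received. For each locus, the reads in SKNO-1 over those in SKNO1-siAE were counted at the shared sites of the surrounding 5 Mb and divided by the same ratio over all shared sites. This ratio lay between 0.978 and 1.09 at 14 loci. It was below 0.9 at 10 loci: 0.617 at H19, IGF2, KCNQ1OT1 and PHLDA2, 0.616 at CDKN1C, 0.636 at MEST, 0.580 at ZDBF2, 0.670 at RB1, 0.415 at IGF2R and 0.414 at AIRN. It was above 1.1 at 6 loci: 1.86 at SNRPN/SNURF, 1.82 at NDN and MAGEL2, 1.81 at MKRN3, 1.80 at FAM50B and 1.47 at NAP1L5. Several of these loci share 1 chromosome arm, so they are not separate observations.

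The counts of intermediate tiles were also taken by this ratio. Where SKNO-1 had fewer reads, 18 of 97 tiles (18.6%) were intermediate in SKNO1-siAE only and 7 (7.22%) in SKNO-1 only. Where SKNO-1 had more reads, 0 of 31 tiles were intermediate in SKNO1-siAE only and 7 (22.6%) in SKNO-1 only. Where the ratio was near 1, the shares were 7.18% and 6.63% of 181 tiles. In the tiles of all genes, split in the same way, the share intermediate in SKNO1-siAE only was 4.75% at a lower ratio, 5.33% near 1 and 4.76% at a higher ratio, and the share in SKNO-1 only was 7.17%, 7.74% and 8.05%. This split was made after the values were seen, and the counts rest mostly on a pair of domains. Of the 18 tiles, 15 lay in the 5 loci of 11p15, and the other 5 loci with fewer reads in SKNO-1 held 3 of 46 tiles (6.52%) intermediate in SKNO1-siAE only, with none in IGF2R, AIRN and RB1. Of the 7 tiles intermediate in SKNO-1 only where SKNO-1 had more reads, 6 lay in the 4 loci of chromosome 15, and FAM50B held none. In the loci near a ratio of 1, 15 tiles (8.29%) were intermediate in both libraries, against 5.47% of the tiles of all genes with such a ratio. The leading stretch differed by at least 0.2 in 6 of the 14 loci, in 3 of them to each side. Among the 6 were PLAGL1/HYMAI, with a ratio of 0.987, PEG3/ZIM2, with 1.01, and GRB10, with only 6 sites. A locus with an intermediate stretch was represented by it, and the same count was not made over all genes. The 6 of 14 is therefore not a result about loci near a ratio of 1. The part of copy number in the differences was not tested.

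The hexamer TGCCGC, which the imprint-keeping zinc finger protein ZFP57 binds when it is methylated, was searched on both strands. It occurred in 94 of the 309 tiles of the imprinted genes (30.4%) and in 21.5% of the tiles of all genes. Among tiles intermediate in both libraries it occurred in 3 of 24 (12.5%) of these genes and in 12.4% of all genes.

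Of the 4462 CpGs of the imprinted genes with a shared site, 2340 had one on both strands and 2122 on 1 strand alone. The strands served as a rough check within a library. The level of a strand was the mean over all its sites in a tile, so the strands partly compare different CpGs. In the 232 tiles of the imprinted genes with at least 3 sites on each strand, the median difference between strands was 0.0382 in SKNO-1 and 0.0486 in SKNO1-siAE, and the median difference between libraries was 0.0496. Strands differed by at least 0.2 in 23 and 32 tiles, whereas the libraries differed by as much in 55. The H19 stretch was 0.0643 and 0.0318 on the + and - strand in SKNO-1, and 0.654 and 0.417 in SKNO1-siAE. Of the 3 loci intermediate in both libraries, only L3MBTL1 was within the range on each strand of each library, since a strand of SKNO-1 lay outside it in HM13 and GNAS/GNAS-AS1.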

How the data were processed

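The MCC-Seq data comprised 1 library each of SKNO-1 and SKNO1-siAE. The authors captured and sequenced bisulfite-converted DNA and aligned it to hg19, and the submitters' processing notes name cutadapt 1.4.2 and BSMAP 2.73. The authors deposited methylated and unmethylated read counts for each CpG cytosine and strand, not normalized, with at least 5 reads per site. Removal of PCR duplicates is not given in the sources used here, and the reads carry no molecular identifiers, so intervals cover counting error only. The libraries held 83620068 and 82164216 site reads, with a mean depth of 17.7 and 17.5. All shared nuclear sites (100.00%) fell on a CpG of GRCh37.

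Levels, 500 bp tiles, classes (below 0.3, above 0.7, or between), stretches and Wilson intervals (95%) were computed as the results describe. Site calls used Fisher's exact test, adjusted by Benjamini-Hochberg over 3168726 sites, with limits of 0.05 for the adjusted value and 0.2 for the difference. The members and lists were chosen with earlier results of these data known. Each locus was named by its longest stretch intermediate in at least 1 library, or else by the tile with the most sites; other stretches, and the loci whose sequences are shown, were chosen after their values were seen. Sequences came from GRCh37 and were taken where shared sites were densest outside annotated untranslated exons, not at the centre of the stretch as planned. Transcripts came from GENCODE v44 lifted to GRCh37. The alternatives are given in the closing section. The tools were pandas 2.3.3, numba 0.67.0, numpy 2.4.6 and matplotlib 3.10.9 in python 3.11.15.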

Additional observations from a re-analysis of the deposited data

How the results depend on the processing

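No paired analysis was possible because there was 1 library per cell line, and for the same reason no library could be left out. Of the 12 alternatives tried on the counts of tiles, most gave counts within 1.5 times the reported ones. The 24 tiles intermediate in both libraries became 15 with at least 10 reads per site, 10 on the + strand alone, 13 on the - strand alone and 10 when the median site also had to be intermediate. The 31 tiles intermediate in SKNO1-siAE only became 14 with at least 10 reads, and the 26 in SKNO-1 only became 14 with at least 10 sites per tile. In the settings that moved a count, the share among imprinted genes and that of all genes moved too: 6.55% against 4.75%, 4.57% against 4.31%, 6.02% against 4.25% and 3.24% against 1.45% for tiles intermediate in both, 6.11% against 4.76% for SKNO1-siAE only, and 6.22% against 6.66% for SKNO-1 only. With Bonferroni adjustment, 50 sites (0.735%, against 0.669% of all shared sites) were higher and 146 (2.15%, against 2.28%) lower in SKNO-1, so that the share of lower sites was below that of all sites and not above it. Of 147 values of the leading stretches under the alternatives, 88 stayed within the counting interval of the difference and 59 moved beyond it, and 0 turned the direction of a difference of at least 0.2. Depth limits single sites, and the cause of these shifts was not tested.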

Other observations

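A list of other imprinted genes and of neighbours of imprinted genes, without the 36 genes, had 311 tiles outside the windows above for 44 matched names of 48. Several of its genes, such as WT1, ZNF331, ZNF597 and IGF1R, lie far from all of the 36. Of these tiles, 28 (9.0%) were intermediate in both libraries, 33 (10.6%) in SKNO-1 only and 20 (6.43%) in SKNO1-siAE only, against 5.21%, 7.67% and 5.11% of the tiles of all genes. Of their sites, 8.78% were called higher and 10.3% lower in SKNO-1, against 4.40% and 11.7% of all shared sites. WT1, ZNF331 and IGF1R held 87, 87 and 74 of the 568 higher sites. The genes named next were chosen after their values were seen. ZNF597, a maternally expressed zinc finger gene, had levels of 0.0388 (SKNO-1) and 0.584 (SKNO1-siAE) averaged over 89 sites, and 51 of them were called lower in SKNO-1 and none higher. The 3 tiles of ZNF597 also lie in the windows of its neighbour NAA60, an N-terminal acetyltransferase, whose other 6 tiles differed by at most 0.167. ZNF331, a zinc finger gene on chromosome 19, went the other way, with 0.682 and 0.555 over 378 sites, of which 32 were called lower. WT1, a transcription factor that is mutated in a part of AML, had 0.855 and 0.749 over 677 sites, with 5 called lower.

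Of 8 genes whose proteins keep imprints, 7 had a tile, and of their 45 tiles 20 were high and 20 low in both libraries (44.4% each, against 47.6% and 25.6% of the tiles of all genes). TRIM28, the cofactor of ZFP57, had a level of 0.182 in both libraries over 89 sites, DNMT1 had 0.534 and 0.547 over 194 sites, and 1.89% and 2.95% of the sites of these genes were called higher and lower in SKNO-1, against 4.40% and 11.7% of all shared sites. ZFP57 had no shared site.

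With the whole gene bodies added to the start windows, 36 of 428 tiles (8.41%) were intermediate in both libraries, against 5.55% for all genes. In the body of RTL1, chr14:101360001-101360500 had 0.592 in SKNO-1 and 0.639 in SKNO1-siAE over 28 sites, from 612 of 875 and 692 of 1022 reads. This tile also lies in the windows of MEG8, a gene of the list of other imprinted genes and neighbours. The bodies of DIRAS3, IGF2, RB1, DLK1 and MEG3 also held tiles intermediate in both libraries.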
